A study of Mus musculus with 6 samples.

Results

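Pyruvate dehydrogenase and the enzymes that switch it on and off were followed in the renal cortex of mice on a steatohepatitis diet, with and without tofogliflozin, an inhibitor of the glucose transporter SGLT2. The 10 genes were chosen by name, out of 24346 in each deposited table, and all 10 passed the filter on low values. They encode 4 subunits of the complex (Pdha1, Pdhb, Dlat and Pdhx), 4 kinases (Pdk1 to Pdk4) and the catalytic subunits of 2 phosphatases (Pdp1 and Pdp2). The cortex of 6 C57BL/6 mice was sequenced, each fed the HF/HC/HS/BA diet, which is rich in fat, cholesterol and bile salt, for 8 weeks. In 3 mice the diet contained tofogliflozin and in 3 it did not; these are called the tofogliflozin and the diet libraries. The dose, sex and age were not given in the sources used here, and a group on standard chow was not analysed here.

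The complex sits in the mitochondrial matrix and turns pyruvate, the end product of glycolysis, into acetyl-CoA for the citrate cycle or for fat synthesis. The kinases phosphorylate the E1 alpha subunit and stop the reaction, and the phosphatases remove the phosphate and start it again. In the kidney, where proximal tubule cells live mainly on fatty acids and make glucose from lactate, a blocked complex keeps pyruvate for glucose synthesis. Pdk4 is known as the kinase gene that is induced in fasting and diabetes through PPARα, FoxO factors and the glucocorticoid receptor.

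The values are FPKM, which are per transcript length, so that levels of different genes can be set side by side. From the steps between the lowest values, a library held about 7570000 to 9690000 fragments, which gives a 2 kb transcript at 1 FPKM about 15.1 to 19.4 of them. Over the 12248 genes tested, those that reached 1 FPKM in 3 or more libraries, the correlation of log2 values between any 2 libraries lay between 0.98 and 0.99. The summed FPKM of 10 proximal tubule markers was 5914 to 6853 in the diet and 5463 to 6154 in the tofogliflozin libraries, and none of the 10 was below the filter. Slc5a2, the gene of SGLT2, was at 172, 150 and 221 FPKM with diet alone and at 161, 168 and 163 FPKM with tofogliflozin. The samples are whole cortex, in which fewer cells of a type and less RNA per cell cannot be told apart.

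As ratios between the groups, the means of Pdk4 and Pdk1 lay farthest apart, and those of Pdhb and Dlat closest together. Pdk4 was at 16.8 ± 2.24 FPKM with diet alone and at 36.0 ± 16.0 FPKM with tofogliflozin (mean ± SD, n = 3 per group), 2.15 times as high. Pdk1 was 1.43 times and Pdk2 1.12 times as high, with every tofogliflozin library above every diet library in each of the 3 genes. For Pdha1, Pdhb and Dlat the ratio of the tofogliflozin to the diet mean was at most 1.05. None of the 10 genes passed a Benjamini-Hochberg adjusted p under 0.05 over all genes tested (limma; 0.253% of tested genes passed). At an unadjusted limma p under 0.05 there were 2 of the 10, Pdk1 and Pdk4, both higher, where 13.1% of tested genes passed in either direction. The libraries of the 2 groups did not overlap in 4 of the 10, as in 18.5% of tested genes.

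**Figure D1:**
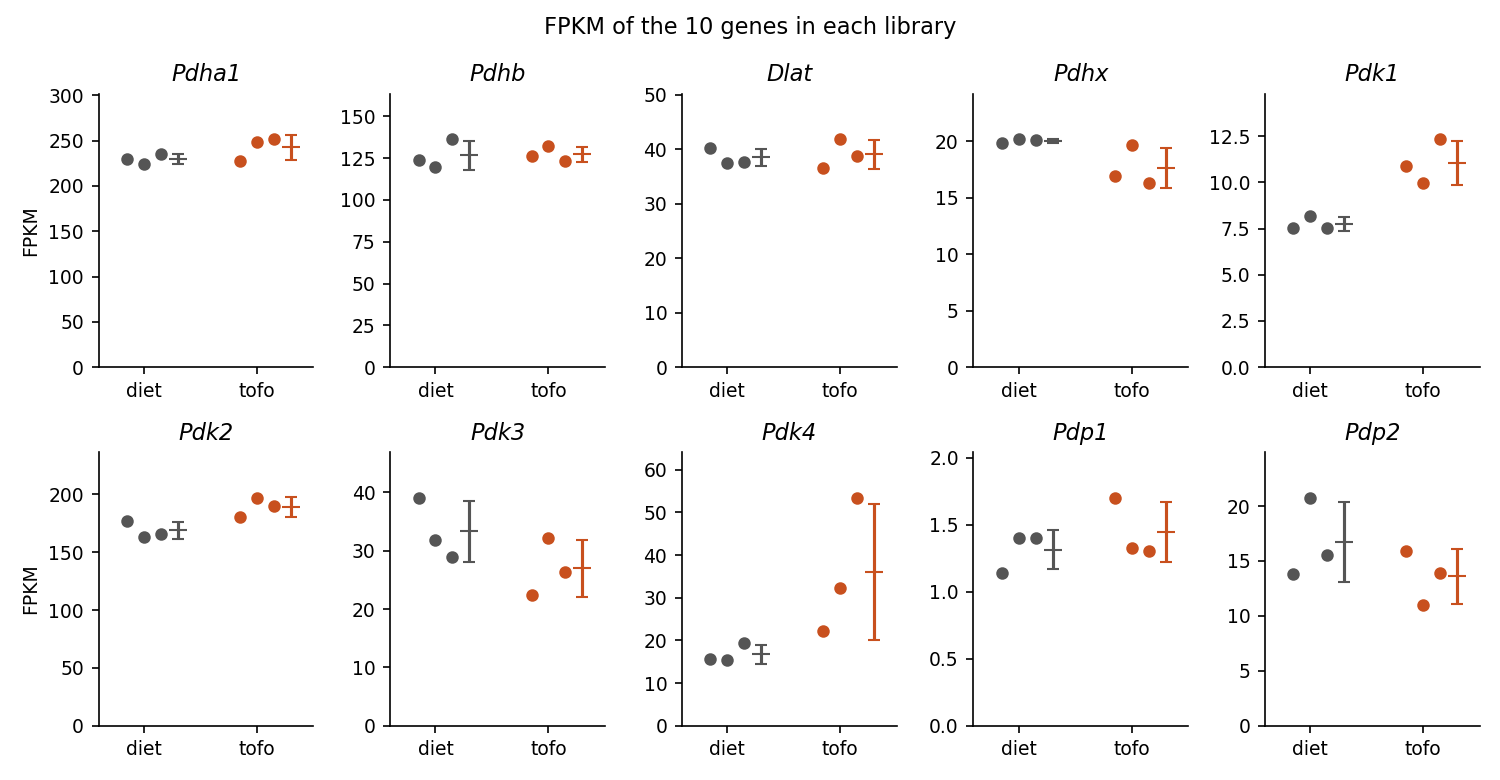
FPKM of each gene (vertical axes, each from 0) in the 3 diet libraries (grey) and the 3 tofogliflozin libraries (orange), with the mean and SD beside the points. The groups are apart for Pdk1, Pdk2, Pdk4 and Pdhx, and Pdk4 runs from 22.2 to 53.5 FPKM within the tofogliflozin group.

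The first enzyme of the complex, E1, decarboxylates pyruvate and is a tetramer of alpha and beta chains. Pdha1, which encodes the alpha chain that carries the phosphorylation sites, was at 230, 225 and 236 FPKM with diet alone and at 227, 249 and 252 FPKM with tofogliflozin. The groups overlapped, and the log2 change was 0.07 (95% interval -0.09 to 0.24; limma adjusted p = 0.717). Pdha1 had the highest level of the 10 genes in all 6 libraries. Its testis-expressed retrogene Pdha2, the copy most likely to share reads with it, is listed at 0 in all 6. Pdha1 occupies 160122209 to 160138413 of chromosome X, minus strand (mm10, GRCm38), with 11 exons, and overlaps Map3k15 on the other strand. Map3k15 was at 13.9 to 16.8 FPKM over the 6 libraries, and whether the counting used strand is not given in the sources used here.

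Pdhb, which encodes the beta chain, was at 124, 120 and 136 FPKM with diet alone and at 126, 132 and 123 FPKM with tofogliflozin. The log2 change was 0.01 (95% interval -0.17 to 0.18; limma adjusted p = 0.975), and its sign turned under other settings. The Pdha1 to Pdhb ratio of FPKM was between 1.73 and 2.04 in every library, so the alpha chain's mRNA was the more abundant throughout. Pdhb lies on chromosome 14 from 8165996 to 8173025 and has 10 exons.

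The core of the complex is built of E2, the acetyltransferase with its swinging lipoyl arm, encoded by Dlat. Dlat was at 40.3, 37.5 and 37.7 FPKM with diet alone and at 36.6, 41.9 and 38.8 FPKM with tofogliflozin. The libraries overlapped, the log2 change was 0.02 (95% interval -0.15 to 0.19; limma adjusted p = 0.943), and its sign turned under 2 other settings. Pdha1 was at 5.70 to 6.48 times the FPKM of Dlat in every library. Dlat has 14 exons on chromosome 9, from 50634633 to 50659780.

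Pdhx encodes the subunit that tethers E3, the last enzyme, to the core. It was at 19.8, 20.2 and 20.1 FPKM with diet alone and at 16.9, 19.7 and 16.3 FPKM with tofogliflozin. The diet libraries lay within 0.385 FPKM of each other and all above the tofogliflozin libraries, the highest of which came close to them. The log2 change was -0.18 (95% interval -0.37 to 0.02; limma adjusted p = 0.423). The Dlat to Pdhx ratio was 2.04, 1.86 and 1.88 with diet alone and 2.16, 2.13 and 2.38 with tofogliflozin. The ratios did not overlap; this ratio was picked after its values were seen and has no test. Of tested genes, 8.86% had every tofogliflozin library below every diet library, as Pdhx had. Pdhx spans 103021075 to 103073513 on chromosome 2.

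E3 itself, dihydrolipoamide dehydrogenase, is shared with the 2-oxoglutarate and branched-chain complexes and is encoded by Dld. Dld was at 162, 147 and 149 FPKM with diet alone and at 159, 158 and 170 FPKM with tofogliflozin (log2 change 0.09; limma adjusted p = 0.655). Its FPKM was 7.29 to 10.4 times that of Pdhx.

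Of the 4 kinase genes, Pdk2 was by far the most abundant. The order within a library was Pdk2, Pdk3, Pdk4 and Pdk1 in all 3 diet libraries, and Pdk4 came level with or passed Pdk3 in the tofogliflozin libraries. The 250 bases before the RefSeq transcription start (the farthest upstream where RefSeq has several) are shown for the 3 kinase genes whose groups did not overlap. Capitals mark matches, on either strand, to ACGTG or GCGTG (hypoxia response cores), CCAAT (the CCAAT box, ATTGG on the other strand) and GGGCGG (the GC box). They are from RefSeq on GRCm38.p6, 5′ to 3′ on the strand of the gene, at chr6:5496279-5496528 (minus strand) for Pdk4, chr2:71872974-71873223 (plus strand) for Pdk1 and chr11:95041372-95041621 (minus strand) for Pdk2.
Pdk4: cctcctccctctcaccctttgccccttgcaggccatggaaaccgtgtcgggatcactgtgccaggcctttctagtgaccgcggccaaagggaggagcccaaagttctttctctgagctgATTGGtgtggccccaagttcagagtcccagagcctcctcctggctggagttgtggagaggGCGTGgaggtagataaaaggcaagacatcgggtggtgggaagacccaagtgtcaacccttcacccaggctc
Pdk1: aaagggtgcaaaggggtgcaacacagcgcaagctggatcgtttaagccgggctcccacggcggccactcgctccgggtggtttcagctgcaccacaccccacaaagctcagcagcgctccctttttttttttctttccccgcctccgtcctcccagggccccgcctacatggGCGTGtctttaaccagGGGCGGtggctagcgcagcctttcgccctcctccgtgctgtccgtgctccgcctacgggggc
Pdk2: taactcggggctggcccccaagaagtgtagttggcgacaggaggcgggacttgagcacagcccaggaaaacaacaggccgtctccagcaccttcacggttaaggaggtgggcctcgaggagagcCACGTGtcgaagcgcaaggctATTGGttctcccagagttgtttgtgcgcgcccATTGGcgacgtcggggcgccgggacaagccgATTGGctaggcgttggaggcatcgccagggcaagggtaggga

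The Pdk4 window held 1 CCAAT box and 1 GCGTG, the Pdk1 window 1 GCGTG and 1 GC box, and the Pdk2 window 3 CCAAT boxes and 1 palindromic CACGTG, which matches ACGTG on both strands. Among 32851 RefSeq windows of this length, 33.9% held CCAAT, 32.7% GGGCGG, 28.2% GCGTG and 16.6% ACGTG. The forkhead element TGTTTAC (3.17% of windows) and the nuclear receptor element AGGTCA (14.0%) had no match in any of the 9 members with an entry (all but Pdp1). These letters say only what is in these windows.

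Pdk4 is the kinase gene known for the widest swings with nutrition. It was at 15.6, 15.4 and 19.4 FPKM with diet alone and at 22.2, 32.4 and 53.5 FPKM with tofogliflozin. Every tofogliflozin library was above every diet library, the lowest of them at 1.15 times the highest diet library, and the highest was 2.41 times the lowest. The log2 change was 0.98 ± 0.27 (SE; 95% interval 0.36 to 1.60), larger than in 99.6% of tested genes. It did not pass over all genes (limma adjusted p = 0.200), and the adjusted p ran from 0.0969 to 0.458 over 14 other settings. On the log2 scale the SD among tofogliflozin libraries was 0.62, larger than in 99.3% of tested genes, against 0.18 among diet libraries. Without tofogliflozin replicate 3 the log2 change was 0.65 (limma adjusted p = 0.371), and without replicate 1 it was 1.27 (0.0969). By these approximate totals, between about 408 and 1586 fragments lay behind each Pdk4 value, so counting error would be small beside this spread. Pdk4 has 11 exons and spans 5483351 to 5496309 of chromosome 6, minus strand, with no overlapping gene. This span is from GENCODE and reaches into the RefSeq window shown above, whose last bases thus lie within the gene by GENCODE.

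Pdk1, a kinase gene induced by HIF-1 in low oxygen, was at 7.55, 8.18 and 7.52 FPKM with diet alone and at 10.9, 9.95 and 12.3 FPKM with tofogliflozin. The groups did not overlap; the diet values lay within 0.664 FPKM of each other, and the highest tofogliflozin value was 1.24 times the lowest. The log2 change was 0.46 ± 0.09 (SE; 95% interval 0.24 to 0.68; limma adjusted p = 0.0976), the smallest p of the 10 genes and rank 151 of 12248. Over 14 other settings the log2 change stayed between 0.38 and 0.53 and the adjusted p between 0.0582 and 0.336. Pdk1 was the least abundant kinase gene in all 6 libraries. It spans 71873224 to 71903858 of chromosome 2, plus strand, and has 11 exons.

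Pdk2, the most widely expressed kinase gene, was at 177, 164 and 166 FPKM with diet alone and at 181, 197 and 190 FPKM with tofogliflozin. The lowest tofogliflozin library was 1.02 times the highest diet library, so the groups were barely apart. The log2 change was 0.16 (95% interval -0.003 to 0.33; limma adjusted p = 0.386). In FPKM this small relative difference was 20.4, more than the 19.2 of Pdk4. Pdk2 lies on chromosome 11 from 95026258 to 95041354, where the antisense gene Gm11513 overlaps it.

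Pdk3, an X-linked kinase gene, was the kinase gene with a lower mean with tofogliflozin. It was at 39.1, 31.8 and 29.0 FPKM with diet alone and at 22.5, 32.1 and 26.3 FPKM with tofogliflozin. Tofogliflozin replicate 2 lay above 2 of the diet libraries, and the log2 change was -0.30 (95% interval -0.64 to 0.04; limma adjusted p = 0.439). Pdk3 spans 93764607 to 93832201 on chromosome X and has 12 exons.

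**Figure D2:**
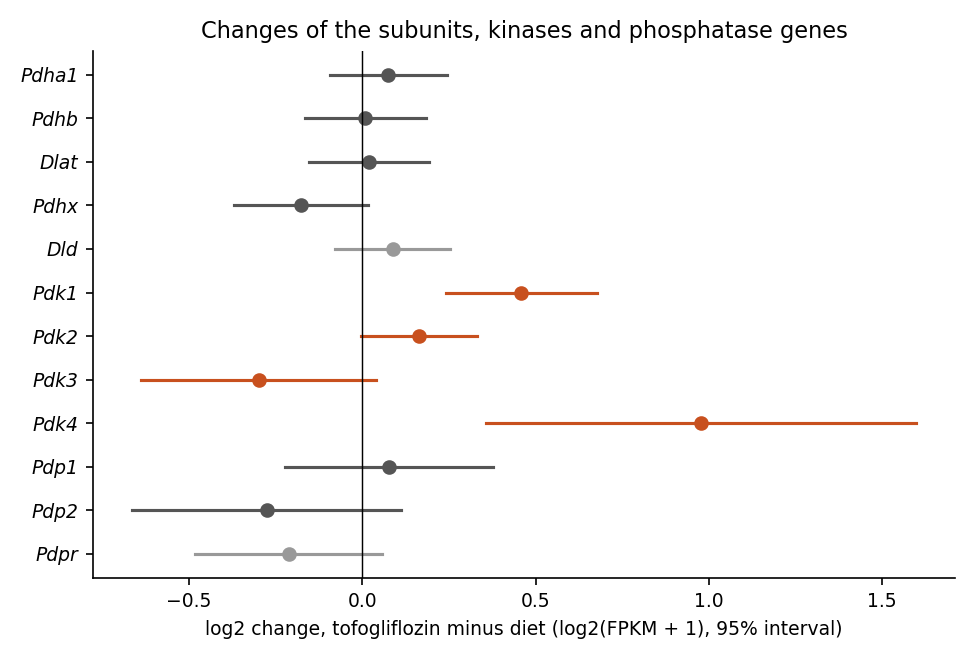
Log2 change on the log2(FPKM + 1) scale (points, horizontal axis) with limma's 95% interval (lines) for the subunit and phosphatase genes (dark grey), the kinase genes (orange) and Dld and Pdpr (light grey). The intervals of Pdk1 and Pdk4 lie above 0, from 0.24 and 0.36, before any adjustment for the number of genes.

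The make-up of the kinase mRNA pool was taken from these values as a description. The summed FPKM of the 4 kinase genes was 239, 219 and 221 with diet alone and 236, 272 and 282 with tofogliflozin. The sums overlapped through tofogliflozin replicate 1. Pdk4 made up 6.52%, 7.03% and 8.75% of the sum with diet alone and 9.39%, 11.9% and 19.0% with tofogliflozin. Pdk3 made up 16.3%, 14.5% and 13.1% against 9.52%, 11.8% and 9.32%, so the shares of both genes were apart between the groups, in opposite directions. Pdk2 held 74.0% to 74.8% in the diet libraries and 76.5%, 72.6% and 67.3% in the tofogliflozin libraries. Pdk1 made up 3.15%, 3.74% and 3.40% with diet alone and 4.61%, 3.66% and 4.38% with tofogliflozin, which overlapped. The Pdk4 to Pdk3 ratio was 0.399, 0.483 and 0.668 with diet alone and 0.987, 1.01 and 2.04 with tofogliflozin. This ratio was not among the planned quantities and has no test. It sets the kinase gene with the largest rise over the one with a lower mean, which favours a gap between the groups.

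**Figure D3:**
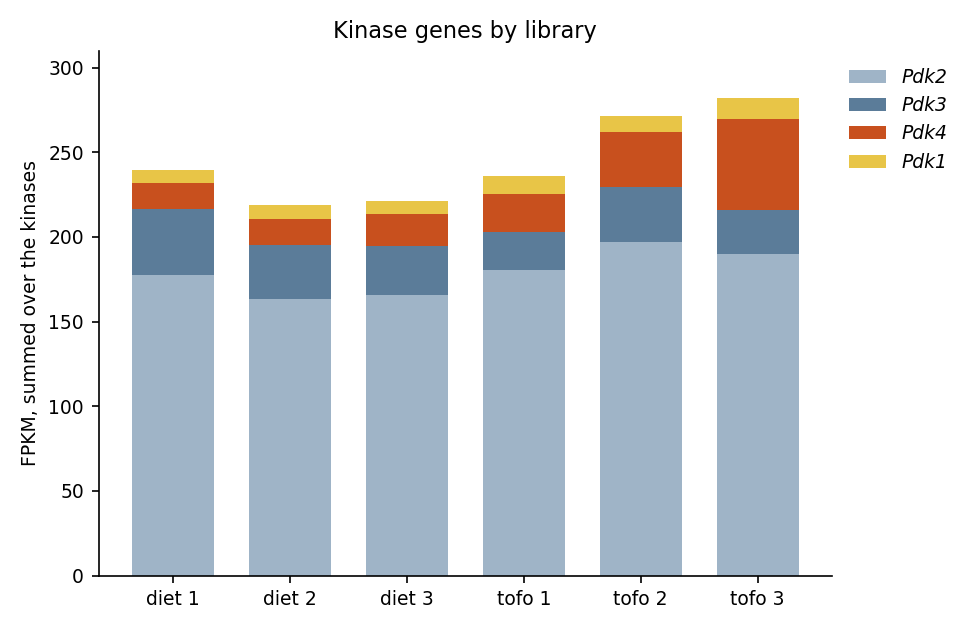
Stacked FPKM of Pdk2, Pdk3, Pdk4 and Pdk1 (vertical axis, from 0) in each diet and tofogliflozin (tofo) library. Pdk2 is the largest block in every library, and the Pdk4 block is largest in tofogliflozin replicate 3, at 19.0% of the sum.

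Of the phosphatase genes, Pdp2 was above Pdk1 in all 6 libraries and Pdp1 was below every kinase gene. Pdp2, which encodes the isoform best known from liver and fat, was at 13.8, 20.8 and 15.5 FPKM with diet alone and at 15.9, 11.0 and 13.9 FPKM with tofogliflozin. The groups overlapped, and the log2 change was -0.28 (95% interval -0.66 to 0.11; limma adjusted p = 0.534). Its highest value was in diet replicate 2. That library also had the highest summed FPKM of 10 macrophage and leukocyte markers, 300 against 112 to 163 in the other diet libraries and 93.4 to 141 with tofogliflozin; their part in the Pdp2 value was not tested. Pdp2 lies on chromosome 8 from 104591451 to 104599026.

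Pdp1, the calcium-stimulated isoform of muscle, was the lowest of the 10 genes in every library. It was at 1.14, 1.40 and 1.40 FPKM with diet alone and at 1.70, 1.33 and 1.30 FPKM with tofogliflozin (log2 change 0.08; 95% interval -0.22 to 0.38; limma adjusted p = 0.848). By the approximate totals, about 24 to 45 fragments lay behind each value. Pdp1 spans 11958184 to 11966452 on chromosome 4. Pdp2 made up 89.2% to 93.7% of the summed phosphatase FPKM.

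Pdpr, which encodes the regulatory subunit of Pdp1, was at 18.3, 19.2 and 17.7 FPKM with diet alone and at 14.7, 13.9 and 19.1 FPKM with tofogliflozin. Its level was thus well above that of its catalytic partner, and its groups overlapped (log2 change -0.21; limma adjusted p = 0.490). The ratio of summed kinase to summed phosphatase FPKM was 16.0, 9.87 and 13.1 with diet alone and 13.4, 22.1 and 18.6 with tofogliflozin. It overlapped between the groups.

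Over the 10 genes the median log2 change was 0.05 and 7 were above 0; over all genes tested the median was -0.001 and 49.7% were above 0. Among the 4 kinase genes 3 were above 0 (median 0.31), and among the 4 subunit genes 3 (median 0.01). In the opposite direction lay Pdk3, Pdp2 and Pdhx.

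Genes known to act on Pdk4 transcription, among them those of the insulin signal that lowers it, were read from a list of 18, of which 17 were tested. None passed over all genes (limma). At an unadjusted limma p under 0.05, 3 were higher and 1 lower, where 13.1% of tested genes passed in either direction. Ppara, the fatty acid receptor, was at 33.9, 36.6 and 28.0 FPKM with diet alone and at 36.3, 39.7 and 49.9 FPKM with tofogliflozin. Its groups overlapped (limma adjusted p = 0.339), and tofogliflozin replicate 3 was highest, as for Pdk4. Foxo3 was at 13.8 ± 1.74 and 19.9 ± 4.13 FPKM, with the groups apart (limma adjusted p = 0.223). Foxo1, which insulin signalling keeps out of the nucleus, was at 11.1 ± 1.56 and 14.1 ± 1.70 FPKM (0.318). Nr3c1, the glucocorticoid receptor, was at 16.2 ± 2.25 and 14.1 ± 1.59 FPKM (0.559). Ppard, the relative of Ppara found in most tissues, was at 9.07 ± 0.755 and 6.43 ± 0.634 FPKM (limma adjusted p = 0.129). The hypoxia factor Hif1a was at 16.1 ± 2.06 and 19.0 ± 1.44 FPKM (limma adjusted p = 0.386).

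Other genes known to be induced by PPARα, FoxO or the glucocorticoid receptor were read beside Pdk4. Of 22 such genes 20 were tested, 17 had a log2 change above 0 (49.7% of all genes tested), and the median was 0.67. Of the 20, 1 rose and 0 fell past the adjusted threshold (limma), which 0.253% of all genes tested passed. At an unadjusted limma p under 0.05, 13 of the 20 were higher and 0 lower, where 6.70% of tested genes were higher. The 1 that passed was Tsc22d3, the glucocorticoid-induced leucine zipper gene, at 29.9, 21.8 and 29.9 FPKM with diet alone and at 60.0, 65.0 and 73.6 FPKM with tofogliflozin (limma adjusted p = 0.0188). With fewer libraries its limma adjusted p was 0.0511 without diet replicate 1 and 0.0522, 0.0581 and 0.106 without tofogliflozin replicate 1, 2 or 3. Every tofogliflozin library was above every diet library in 13 of the 20, against 9.63% of tested genes. Earlier results of these data were known when the list was drawn up, so its direction is a description. The mean deviation of the 20 genes from their own means was -0.26, -0.53 and -0.35 (log2) in the diet libraries and 0.23, 0.29 and 0.61 in the tofogliflozin libraries. The largest value was in tofogliflozin replicate 3, the library in which Pdk4 was highest.

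**Figure D4:**
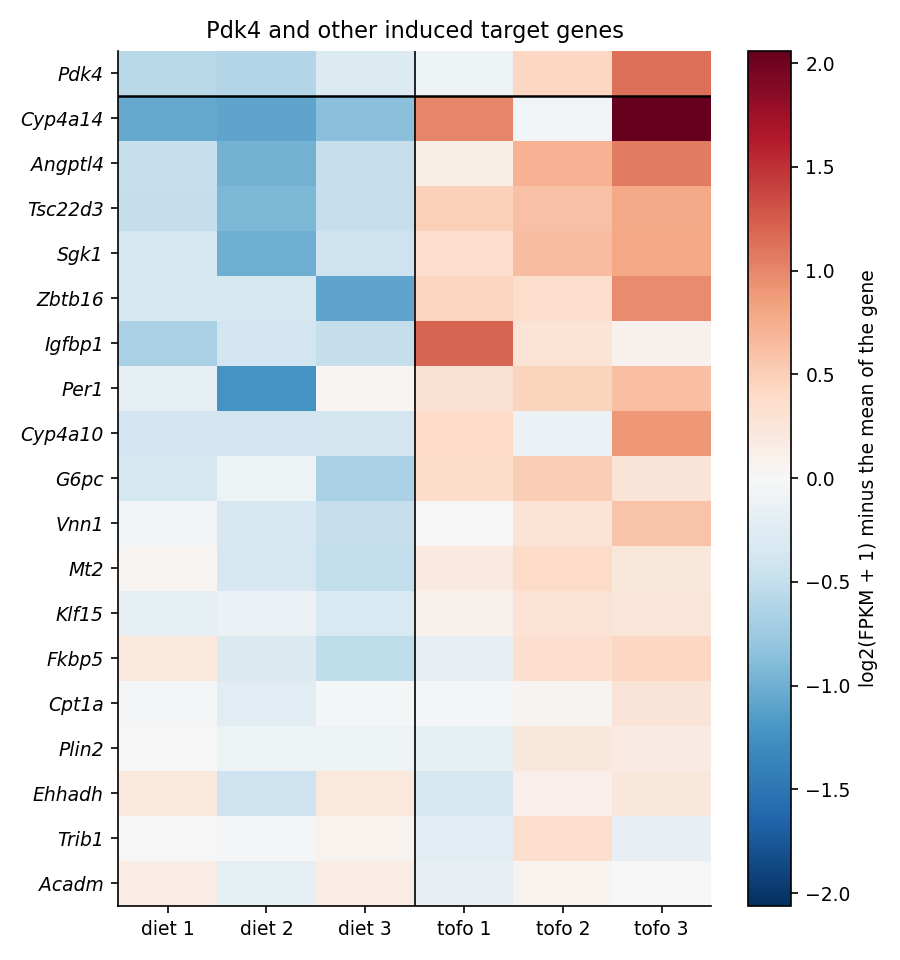
Log2(FPKM + 1) of Pdk4 (top row) and 18 of the 20 tested induced target genes (ordered by log2 change) minus the gene's own mean, in the 6 libraries; red is above and blue below the mean. Tofogliflozin replicate 3 is the column with the most red, with a mean deviation of 0.61 over all 20 genes; the 3 of the 20 with a change below 0 (Ehhadh, Trib1 and Acadm) are among the rows shown.

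The genes with the profile closest to that of Pdk4 were found among 8669 tested genes with a mean of at least 5 FPKM, by the root mean square difference of centred log2 values over the 6 libraries. They were Rasl12 (0.22), Gldc (0.23), Angptl4 (0.24), Pck1 (0.27) and Nat6 (0.27). Angptl4, a secreted inhibitor of lipoprotein lipase, was at 47.1, 33.0 and 47.0 FPKM with diet alone and at 72.7, 109 and 140 FPKM with tofogliflozin. Pck1, the cytosolic carboxykinase of glucose synthesis, was at 2009, 1831 and 1512 FPKM with diet alone and at 2345, 3034 and 4081 FPKM with tofogliflozin. Gldc, of the glycine cleavage system, which also works with a lipoyl arm and Dld, was at 74.8 ± 4.52 and 132 ± 35.4 FPKM. Rasl12, of the Ras-like family, was at 4.67 ± 0.764 and 10.5 ± 2.82 FPKM. Nat6 was at 21.7 ± 2.04 and 38.1 ± 5.72 FPKM; RefSeq gives this symbol as a synonym of both Hyal1 and Naa80, which overlap on the same strand, so its value is uncertain. Hyal1 also has a row of its own, at 5.109, 5.802 and 4.201 FPKM with diet alone and at 16.0, 15.8 and 20.5 FPKM with tofogliflozin. In all 5 closest genes the tofogliflozin libraries followed the order of Pdk4, lowest in replicate 1 and highest in replicate 3. The genes were chosen for likeness over these same libraries, so the shared order follows largely from the choice and is no separate result. None passed over all genes (limma adjusted p from 0.0532 for Nat6 to 0.181 for Pck1).

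**Figure D5:**
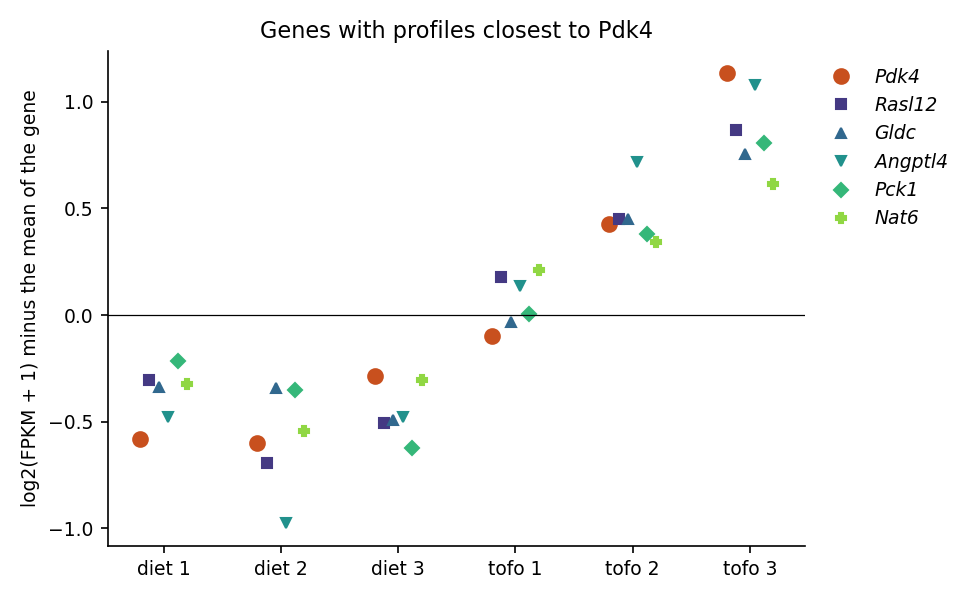
Log2(FPKM + 1) minus the gene's own mean (vertical axis) for Pdk4 (large circles) and the 5 genes of closest profile in the 6 libraries. All 6 genes are below their mean in the diet libraries and highest in tofogliflozin replicate 3, a likeness for which the 5 were chosen.

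Pyruvate reaches the complex through the mitochondrial pyruvate carrier, a heterodimer of Mpc1 and Mpc2. Mpc2 was at 327, 310 and 379 FPKM with diet alone and at 414, 417 and 393 FPKM with tofogliflozin, groups that lay apart (log2 change 0.27; limma adjusted p = 0.267). Mpc1 was at 402 ± 28.3 and 382 ± 29.2 FPKM (limma adjusted p = 0.788). Of 17 genes of pyruvate supply and other fates of pyruvate, 0 passed over all genes (limma). At an unadjusted limma p under 0.05, where 13.1% of tested genes passed in either direction, 4 of them were higher and 1 lower. Besides Mpc2 and Pck1 these included Pklr, the pyruvate kinase of liver and kidney, at 17.7 ± 1.48 and 22.6 ± 1.32 FPKM (limma adjusted p = 0.169). Slc5a12, which takes up lactate and pyruvate in the proximal tubule, was at 118 ± 8.59 and 161 ± 25.4 FPKM (limma adjusted p = 0.199). The 1 lower gene was Slc5a8, at 73.1, 67.4 and 70.1 FPKM with diet alone and at 58.6, 61.2 and 62.6 FPKM with tofogliflozin. Its groups lay apart (limma adjusted p = 0.2515).

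The complex needs lipoate on its E2 and thiamine diphosphate on its E1. Of 11 genes of lipoate and thiamine supply 0 passed over all genes (limma). At an unadjusted limma p under 0.05, which 13.1% of tested genes passed in either direction, there was 1. That 1 was Slc19a3, a thiamine transporter gene, at 11.9 ± 0.553 and 13.7 ± 0.751 FPKM (limma adjusted p = 0.344). Slc19a2, also a thiamine transporter gene, was at 4.82 ± 0.668 and 4.19 ± 0.664 FPKM.

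The sister complexes that act on 2-oxoglutarate and branched-chain keto acids gave 0 of 9 genes past the threshold (limma; 0 also at an unadjusted p under 0.05), with a median log2 change of 0.05. Bckdha, the branched-chain counterpart of Pdha1, was at 251 ± 20.7 and 229 ± 19.0 FPKM. Bckdhb, its partner, was at 27.3 ± 3.30 and 29.8 ± 0.697 FPKM. Ppm1k, the phosphatase of the branched-chain complex, was at 5.13 ± 1.31 and 6.32 ± 0.869 FPKM. The citrate cycle, which takes up the acetyl-CoA made by the complex, gave 0 of 19 (limma), with 0 at an unadjusted p under 0.05 and a median of 0.02. Over all genes tested, 13.1% had an unadjusted limma p under 0.05 and the median log2 change was -0.001. Idh2 was at 374 ± 11.4 and 409 ± 7.50 FPKM. Cs, the citrate synthase gene, was at 113 ± 4.12 and 104 ± 1.56 FPKM. Their adjusted p in limma came to 0.490 and 0.508, with 3 libraries per group.

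Of 16 genes induced by hypoxia or of glycolysis, read beside Pdk1, 15 were tested and 0 passed (limma). The median log2 change was -0.04 and 5 were above 0, where 49.7% of tested genes were. At an unadjusted limma p under 0.05, 1 was higher, where 6.70% of tested genes were higher. The 1 was Bnip3, a mitophagy gene, at 97.7 ± 8.46 and 128 ± 14.9 FPKM (limma adjusted p = 0.196). Hk1, a hexokinase gene, was at 26.5 ± 3.70 and 30.9 ± 2.82 FPKM, and Pfkfb3, which makes the activator of glycolysis fructose 2,6-bisphosphate, at 5.12 ± 0.464 and 4.27 ± 0.596 FPKM.

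Markers of the cell types of the cortex were read beside these results. Over all genes tested 49.7% had a log2 change above 0. At an unadjusted limma p under 0.05, 6.70% of tested genes were higher and 13.1% passed in either direction. Of 11 distal nephron markers 10 had a log2 change above 0 (median 0.24), 6 at an unadjusted limma p under 0.05, among them Scnn1g, an epithelial sodium channel subunit gene, at 13.0 ± 0.388 and 17.7 ± 0.179 FPKM (limma adjusted p = 0.0644). Their summed FPKM was 2207 to 2892 with diet alone and 2560 to 2712 with tofogliflozin. Most of this sum is Umod, at 1454, 1954 and 1999 FPKM with diet alone and at 1608, 1639 and 1673 FPKM with tofogliflozin. Of 10 proximal tubule markers 8 had a change below 0 (median -0.13), 3 at an unadjusted p under 0.05, among them Slc22a6, an organic anion transporter gene, at 339 ± 58.8 and 271 ± 27.5 FPKM. All 8 tested markers of macrophages and leukocytes had a change below 0 (median -0.43), and 2 of them had an unadjusted p under 0.05. The smallest was that of Csf1r, which encodes a macrophage growth factor receptor, at 17.5, 20.2 and 17.7 FPKM with diet alone and at 13.4, 15.6 and 11.1 FPKM with tofogliflozin, with the groups apart (limma adjusted p = 0.198). The lysozyme gene Lyz2 was at 28.1, 88.9 and 17.7 FPKM with diet alone and at 11.9, 19.1 and 10.7 FPKM with tofogliflozin, and its log2 change of -1.34 was -0.69 without diet replicate 2. Podocyte and endothelial markers had a median of 0.03 and fibroblast and smooth muscle markers a median of 0.08, with the collagen gene Col1a1 at 2.08 ± 1.11 and 1.48 ± 0.496 FPKM. The part of these shifts in the values of the kinase genes was not tested. Pdk4 is also abundant in striated muscle and fat, and of their 7 markers 6 were under 1 FPKM in every library: Ckm, Acta1 and Myh4 of muscle were listed at 0 in all 6, and Adipoq, Plin1 and Ucp1 of fat reached at most 0.569 FPKM. Fabp4, which endothelial cells also express, was at 66.4 ± 5.64 and 67.1 ± 7.85 FPKM.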

How the data were processed

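Per the labels' protocols, total RNA was column-purified and sequenced from stranded mRNA libraries. The authors deposited 1 table of FPKM per library. Per the submitters' processing notes the build was mm10 and the tools were Cuffdiff 2.2.1, SAMtools 0.1.18, TopHat2 2.1.1 and Bowtie2 2.2.8 (annotation, use of strand and normalization: not given in the sources used here).

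Groups and replicate numbers came from the labels, 3 mice per group. A gene was tested if it reached 1 FPKM in 3 or more of the 6 libraries (12248 genes). Values were taken as log2(FPKM + 1), which makes changes of low genes look smaller than they are. Tofogliflozin was set against diet with limma's two-sided moderated test and a mean-variance trend (limma 3.58.1, R 4.3.3); p-values were adjusted by Benjamini-Hochberg over the 12248 genes, with 0.05 as the threshold. The fit was also run on simulated data with known changes, as a check of the code. The simulated noise was independent between genes, so that run cannot speak to differences that many genes of a library share. Fragment totals were estimated from the lowest FPKM values of single-transcript genes, where a value is what 1 fragment is worth; they are approximate, and no count test was run. Positions are from the GENCODE annotation of GRCm38, and promoter sequences from RefSeq. The 10 genes, the lists and the settings were chosen with earlier results of these data known. Besides the 10, the text names genes of each list past the threshold or, where none passed, those of smallest p, 8 fixed genes, and the 5 closest in profile to Pdk4. Some genes that this rule selects are left out of the text and the plot of induced targets, whatever their direction, and not reported here, while counts include them. The naming of other genes, among them Umod, Hyal1 and Slc5a8, was not fixed beforehand. Some of these are said in the text to be chosen after their values were seen. Figures were drawn with matplotlib 3.10.9.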

Additional observations from a re-analysis of the deposited data

How the results depend on the processing

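In 14 other settings none of the 10 genes passed the threshold, and 8 of the 10 kept the sign of their change in every setting in which they were tested (Pdp1 was not tested with at least 5 FPKM required). The log2 change of Pdhb was -0.021 after quantile normalization, -0.002 with array weights and between -0.031 and 0.062 with a library left out. That of Dlat was -0.009 with array weights and between -0.030 and 0.065 with a library left out. Among the other genes named, Fabp4 was at -0.027 with array weights and between -0.058 and 0.110 with a library left out, Col1a1 at 0.002 without diet replicate 2 and otherwise as low as -0.438, and Slc5a2 at 0.029 without diet replicate 3 and otherwise as low as -0.249. The cause was not tested. The count of changed genes, 31, was 1 with no filter, 20 with at least 5 FPKM, 47 with upper-quartile scaling and 123 with array weights. It was 9, 66 and 57 without diet replicate 1, 2 or 3 and 4, 18 and 2 without tofogliflozin replicate 1, 2 or 3. Tsc22d3 lost its call in 5 of 14 settings, and with upper-quartile scaling 2 induced target genes passed. With the replicate number as a block 26 genes passed, 0 of them among the 10. Samples share only a number: the correlation of deviations was -0.055, -0.062 and 0.051 for numbers 1 to 3, and diet replicate 1 correlated best with tofogliflozin replicate 2 (0.188), so not every sample did with its own number. The summed kinase and phosphatase FPKM moved by less than 1 SD under both other scalings. Their ratio, the shares of the 4 kinase genes and the Pdp2 share moved by less than 1 SD under quantile normalization. Upper-quartile scaling changes all genes of a library by the same factor, so it cannot move a ratio or share and is no check of them. With 3 mice per group and no counts, small differences could not be told from the spread between mice.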

Other observations

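Within the induced target genes, the tofogliflozin libraries did not share 1 order; the genes here were chosen after their values were seen. Cyp4a14, a fatty acid hydroxylase gene, was at 13.5, 13.2 and 15.6 FPKM with diet alone and at 59.4, 27.9 and 125 FPKM with tofogliflozin (limma adjusted p = 0.124), lowest in tofogliflozin replicate 2 and highest in replicate 3. Igfbp1, an insulin-repressed FoxO target, was at 10.8, 13.4 and 12.4 FPKM with diet alone and at 42.1, 21.8 and 18.9 FPKM with tofogliflozin (limma adjusted p = 0.166), highest in replicate 1, where Pdk4 was lowest of the 3. Acadm and Ehhadh, also known targets of PPARα, had overlapping groups and log2 changes of -0.07 and -0.01 (limma adjusted p = 0.844 and 0.983).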
